A study of Mus musculus with 16 samples.

Results

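Polycomb and trithorax chromatin regulators were described across the exit of mouse embryonic stem (ES) cells from naive pluripotency. The group was a list of 41 gene symbols, defined by the complexes their products belong to. It held the subunits and accessory proteins of Polycomb repressive complexes 1 and 2 (PRC1 and PRC2), the H3K4 methyltransferases of the trithorax group with their shared subunits, and the 2 H3K27 demethylases. All 41 were found among the 27179 genes of the count table, and all 41 were among the 14288 genes that passed the filter on low counts. RNA was sequenced in 16 libraries, 2 for each of 8 groups, which combined 2 maintenance media with 4 times after release (0, 12, 24 and 40 h). The 2i/LIF medium was serum-free and contained leukaemia inhibitory factor (LIF) with 2i, which is 3 uM of the GSK3 inhibitor CHIR99021 and 1 uM of the MEK inhibitor PD0325901. The serum/LIF+2i medium held the same inhibitors and LIF with 10% fetal bovine serum. All groups came from ES cells grown in serum and LIF, adapted to either medium for 3 passages and used for at most 9 passages. Release meant a wash and a change to serum-free medium with N-2, B-27 and glutamine but without 2i and LIF. The cells at 0 h stayed in their maintenance medium and were the controls. The base medium of release also differed, since glutamine-free DMEM with 2 mM added glutamine was used for cells from serum/LIF+2i, so the effect of the maintenance medium and that of the release medium cannot be told apart. The protocol names 24 and 40 h for cells from serum/LIF+2i, while libraries titled 12 h exist for them too, and the titles were followed. No line name, clone or genotype was given in the labels.

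Polycomb proteins keep developmental genes silent. PRC2 methylates lysine 27 of histone H3 (H3K27), PRC1 ubiquitinates histone H2A, and each complex can recruit the other. Trithorax-group enzymes oppose them by methylating H3K4, and the demethylases Kdm6a and Kdm6b remove the H3K27 mark. In naive ES cells both systems meet at the CpG islands of genes that later control differentiation, and several subunits come as paralogues (related genes for the same position in a complex), so the makeup of a complex can change without any change of its catalytic centre.

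The promoters of 4 members are printed to show how their CG content differs. They were chosen because Phc1 and Phf19 had the largest rises at 40 h, Suz12 had the largest fall among the PRC2 core genes, and Mtf2 is the paralogue of Phf19 that fell. Each run is the 250 bases before the annotated start, 5′ to 3′ on the gene's own strand, from RefSeq on GRCm38.p6, and CG dinucleotides, the letters that unmethylated CpG islands are rich in, are in capitals.
Phc1 (chr6:122340228-122340477, minus strand): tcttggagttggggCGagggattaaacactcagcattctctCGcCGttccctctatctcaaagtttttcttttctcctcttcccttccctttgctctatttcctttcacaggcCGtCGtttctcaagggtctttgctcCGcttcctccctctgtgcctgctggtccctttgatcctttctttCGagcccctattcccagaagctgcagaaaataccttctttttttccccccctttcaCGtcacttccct
Phf19 (chr2:34913977-34914226, minus strand): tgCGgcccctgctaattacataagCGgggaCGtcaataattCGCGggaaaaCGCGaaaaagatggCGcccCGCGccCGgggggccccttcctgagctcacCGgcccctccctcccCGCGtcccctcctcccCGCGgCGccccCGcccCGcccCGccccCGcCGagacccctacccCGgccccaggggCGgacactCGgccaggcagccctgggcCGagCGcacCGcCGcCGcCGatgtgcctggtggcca
Suz12 (chr11:79992856-79993105, plus strand): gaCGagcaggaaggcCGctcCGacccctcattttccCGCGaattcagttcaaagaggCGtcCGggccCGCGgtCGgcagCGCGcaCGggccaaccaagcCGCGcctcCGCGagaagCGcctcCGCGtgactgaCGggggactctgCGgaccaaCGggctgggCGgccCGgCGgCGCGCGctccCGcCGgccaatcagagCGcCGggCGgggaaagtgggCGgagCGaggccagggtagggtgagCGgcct
Mtf2 (chr5:108065424-108065673, plus strand, the first of its annotated starts): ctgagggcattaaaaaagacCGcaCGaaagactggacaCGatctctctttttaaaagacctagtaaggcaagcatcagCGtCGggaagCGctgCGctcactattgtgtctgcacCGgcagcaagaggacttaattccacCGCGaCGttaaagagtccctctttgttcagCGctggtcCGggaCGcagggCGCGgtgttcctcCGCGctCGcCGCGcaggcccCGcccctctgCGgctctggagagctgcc
The Phc1 stretch held 8 CG, and 43.0% of the 32851 mouse promoters in the RefSeq table had at least as many. Phf19 had 31 (5.19% had at least as many), Suz12 37 (2.20%) and Mtf2 23 (13.3%). For the 33 members with an entry, the median over their 49 promoters was 21 CG, against 6 over all promoters, and the single promoters held from 1 (Aebp2, Dpy30 and Phc2) to 48 (Kmt2c). The letters TATAAA, read on either strand, were in 1 of the 49 and in 12.4% of all promoters of the same length. Of these 4, Phc1 had the fewest CG and Suz12 the most, so the 2 genes with the largest rises differed in this content.

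Total counts per library were between 5931381 and 11142744, so that 3 counts, taken as the floor of detection, were worth between 0.259 and 0.517 CPM (counts scaled to library size). Replicate libraries correlated with r between 0.991 and 0.995 across genes, which are not independent replicates. Nothing in the labels says that replicates came from separate cultures, so p-values measure the spread between these libraries, which may be technical. The summed level of 7 pluripotency markers was between 3214 and 3763 CPM at 0 and 12 h and between 1480.3 and 1551 CPM at 40 h. Summed over 6 primitive endoderm markers, the level was between 6.23 and 6.90 CPM at 0 h and between 10.5 and 16.2 CPM at 40 h. For 5 feeder fibroblast markers, 1 of which was at 0 throughout, it was between 1.78 and 10.5 CPM over all libraries. The sum of 4 neural markers was between 28.1 and 47.4 CPM at 0 h and between 86.3 and 123 CPM at 40 h. In the other direction, 3 mesoderm markers summed to between 14.5 and 32.1 CPM at 0 h, between 0.685 and 1.76 CPM at 12 h and between 0.815 and 1.45 CPM at 40 h. The 4 trophoblast markers summed to between 12.8 and 16.5 CPM at 0 h and between 2.88 and 4.84 CPM at 40 h. All these sums moved with release in both media, and their part in the results below was not tested. In these bulk samples, fewer cells of a type and less RNA per cell cannot be told apart.

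After 40 h most members had changed, in both directions, and the median size of the change was near that over all genes. Calls were made at 0.05 on the adjusted p (edgeR's quasi-likelihood F test over all 14288 genes). In 2i/LIF cells 14 members were called higher and 20 lower at 40 h, where 34.1% and 34.7% of all genes were called. In serum/LIF+2i cells the counts were 15 and 20, against 35.3% and 35.3% of all genes. With library size as the only scaling they were 16 and 15 there, when 56.2% of all called genes were higher. In 2i/LIF that scaling gave 16 and 19, when 54.7% of all called genes were higher. The median log2 fold change was -0.07 in 2i/LIF (0.01 over all genes) and -0.13 in serum/LIF+2i (-0.00 over all genes). Rises and falls offset each other in these medians. Taken without sign, the median was 0.50 in 2i/LIF (0.53 over all genes) and 0.47 in serum/LIF+2i (0.50 over all genes). Few moved by at least 1 on the log2 scale. In 2i/LIF, 2 rose that far (Phf19, Phc1) and 3 fell (Suz12, Cbx8, Pcgf1), where 15.5% and 13.9% of all genes did. In serum/LIF+2i, 3 rose (Phf19, Phc1, Kdm6b) and 5 fell (Eed, Suz12, Mtf2, Cbx8, Wdr5), against 16.8% and 12.7% of all genes. The members past this size were fewer than the shares of all genes would give among rises in both media and among falls in 2i/LIF, and near them among falls in serum/LIF+2i.

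The effect of release had the same direction in both media for most members. At 40 h, 12 were higher in both media (Jarid2, Phf19, Cbx2, Cbx7, Pcgf3, Pcgf6, Yaf2, Kdm2b, Phc1, Phc2, Kdm6b and Ash2l), against 27% of all genes. A further 17 were lower in both (Eed, Suz12, Aebp2, Mtf2, Epop, Rbbp7, Rnf2, Cbx8, Pcgf1, Pcgf2, Rybp, Phc3, L3mbtl2, Kmt2b, Kmt2c, Kmt2d and Wdr5), against 27.5%. Rbbp4 and Bmi1 were called in opposite directions, which 2.16% of all genes were. The changes of Rbbp4 were small and its calls were lost in some alternatives, as given below. Release at 12, 24 and 40 h was always set against the same 2 libraries at 0 h, so the counts at these times are not independent. At 12 h, 15 members were higher and 9 lower in 2i/LIF (21% and 23.7% of all genes), and 18 and 11 in serum/LIF+2i (25.3% and 25.9%). At 24 h the counts were 13 and 13 in 2i/LIF (29.2% and 29.6%) and 14 and 18 in serum/LIF+2i (32.4% and 32%).

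**Figure D1:**
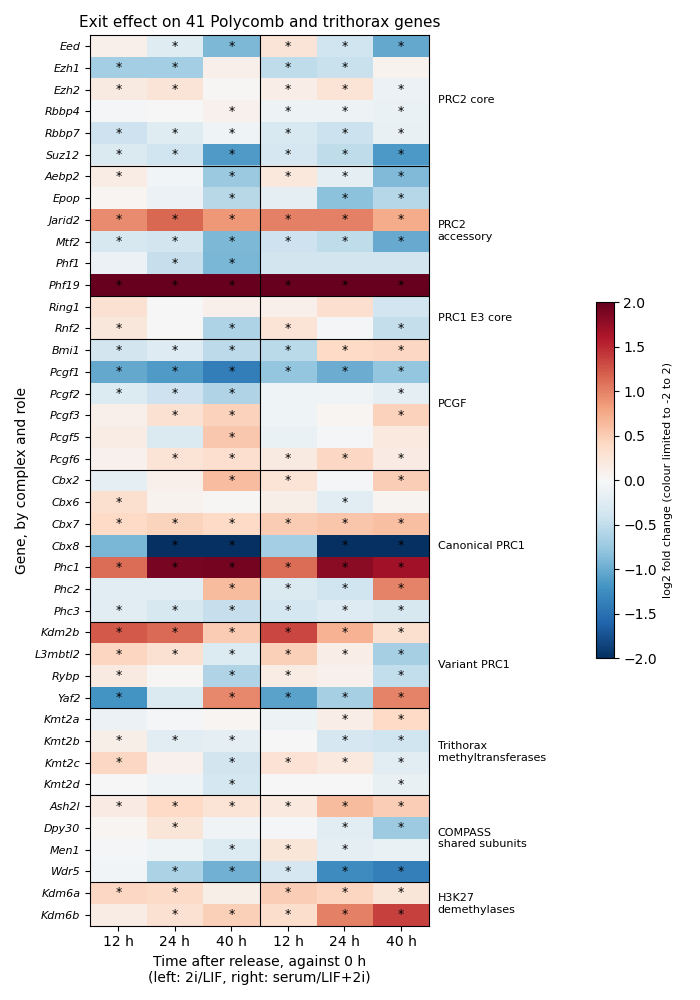
Each row is one of the 41 genes, grouped by complex, and each column is 12, 24 or 40 h against 0 h, on the left for 2i/LIF and on the right for serum/LIF+2i. Colour is the log2 fold change, limited to -2 and 2, and a star marks an adjusted p under 0.05, as for 34 genes of 2i/LIF cells and 35 of serum/LIF+2i cells at 40 h.

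Of the 6 genes of the PRC2 core, 1 was called higher and 3 lower at 40 h in 2i/LIF (34.1% and 34.7% of all genes). In serum/LIF+2i, 5 were called lower (35.3% of all genes). Each complex holds few genes, so its counts here and below are a description, and no complex was tested against these shares. The scaffold Suz12 and the H3K27me3 reader Eed fell furthest, while the catalytic subunits were close to their starting level. In 2i/LIF cells, Suz12 was at 589 and 567 CPM at 0 h, 473 and 469 at 12 h, 431 and 442 at 24 h, and 259.9 and 268 at 40 h (replicates 1 and 2). Suz12 in serum/LIF+2i was at 609 and 593 CPM at 0 h, 473 and 483 at 12 h, 429 and 419 at 24 h, and 275 and 267 at 40 h. In both media it was lower at each time than at the one before, without overlap. The log2 fold change of Suz12 at 40 h was -1.13 (SE 0.04, adjusted p = 4.7e-54) in 2i/LIF and -1.15 (SE 0.04, adjusted p = 2.3e-56) in serum/LIF+2i. Eed, in contrast, was not lower at 12 h. In 2i/LIF it was at 248 and 237 CPM at 0 h, 265 and 256 at 12 h, 213 and 196 at 24 h, and 132 and 126 at 40 h. Eed in serum/LIF+2i was at 251 and 224 CPM at 0 h, 284 and 284 at 12 h, 185 and 177 at 24 h, and 117 and 119 at 40 h, so its highest libraries were those of 12 h in both media. By 40 h Eed had fallen on the log2 scale, with -0.90 (SE 0.05, adjusted p = 2.6e-34) in 2i/LIF and -1.02 (SE 0.05, adjusted p = 2.3e-40) in serum/LIF+2i. An antisense transcript overlaps 6.82% of the exonic bases of Eed, and since whether counting used strand is not given in the sources used here, reads of the pair cannot be told apart. The same holds for Suz12, which shares 3.6% with Gm26563 on the other strand.

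Ezh2, the main H3K27 methyltransferase of ES cells, rose slightly at first and was back near its start at 40 h. Its log2 fold change in 2i/LIF was 0.17 at 12 h, 0.26 (SE 0.05, adjusted p = 1.6e-06) at 24 h and 0.03 (SE 0.05, adjusted p = 0.58) at 40 h. it in serum/LIF+2i was 0.28 (SE 0.05, adjusted p = 4.4e-08) at 24 h and -0.12 (SE 0.05, adjusted p = 0.019) at 40 h. That last call rests on replicate 1 of serum/LIF+2i at 0 h, without which the value was 0.00397, and DESeq2 did not make it either (adjusted p = 0.18). Ezh1, the second methyltransferase and the weaker enzyme, dipped and came back. Group means of Ezh1 in 2i/LIF were 49.6 ± 4.83, 31.2 ± 0.124, 31.0 ± 3.46 and 53.1 ± 0.0187 CPM at 0, 12, 24 and 40 h (SD, n = 2). In serum/LIF+2i they were 36.2 ± 2.38, 25.8 ± 3.07, 26.7 ± 0.853 and 38.0 ± 0.209 CPM (SD, n = 2). At 12 h the log2 fold change of Ezh1 was -0.67 (SE 0.10, adjusted p = 2.4e-09) in 2i/LIF and -0.50 (SE 0.10, adjusted p = 1.8e-05) in serum/LIF+2i. Between 24 and 40 h Ezh1 rose by 0.77 (SE 0.09, adjusted p = 4.9e-12) and 0.51 (SE 0.09, adjusted p = 9.2e-07). The histone-binding pair Rbbp4 and Rbbp7, which also serve other complexes, share exonic bases with genes on the other strand. For Rbbp4 this was 8.94% with Sync and 9.1% with Gm26722, and for Rbbp7 5.98% with Txlng, so their counts are uncertain. Both moved little at 40 h: Rbbp4 by 0.08 and -0.13 and Rbbp7 by -0.09 and -0.14, in 2i/LIF and serum/LIF+2i. These 4 small values were all called, but in 2i/LIF the call of Rbbp4 was lost without any 1 of the 4 libraries and that of Rbbp7 with library size as the only scaling (adjusted p = 0.61), and both calls in serum/LIF+2i were lost with that scaling (adjusted p = 0.21 for Rbbp4 and adjusted p = 0.11 for Rbbp7).

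The 6 accessory genes of PRC2 split into 2 that rose and 4 that fell in 2i/LIF at 40 h (34.1% and 34.7% of all genes). In serum/LIF+2i the split was 2 and 3 (35.3% and 35.3%). Jarid2, which brings PRC2 to ubiquitinated H2A, and Phf19 rose in both media, while Aebp2, Mtf2 and Epop fell in both. Phf19 and Mtf2 belong to the same Polycomb-like family, whose members read H3K36 methylation and bind CpG-rich DNA. Phf19 had only 3 and 5 counts at 0 h in 2i/LIF, at or just above the floor, and 14 and 3 in serum/LIF+2i. In 2i/LIF cells, Phf19 was at 0.517 and 0.759 CPM at 0 h, 6.03 and 8.69 at 12 h, 12.5 and 11.2 at 24 h, and 6.39 and 7.88 at 40 h. Phf19 in serum/LIF+2i was at 2.06 and 0.441 CPM at 0 h, 18.4 and 16.6 at 12 h, 11.2 and 10.6 at 24 h, and 6.38 and 5.61 at 40 h. All libraries after release lay above all 4 at 0 h, and the highest were those of 24 h in 2i/LIF and of 12 h in serum/LIF+2i. The fitted log2 fold change of Phf19 at 40 h was 3.43 (SE 0.40, adjusted p = 2.8e-13) in 2i/LIF and 2.25 (SE 0.33, adjusted p = 1.2e-09) in serum/LIF+2i. With so few counts at the start the size is loose: in serum/LIF+2i it was 3.72 without replicate 1 at 0 h and 1.54 without replicate 2. At 12 h Phf19 was higher in serum/LIF+2i than in 2i/LIF by 1.24 (SE 0.17, adjusted p = 2.9e-09) on the log2 scale, and at 24 and 40 h the difference was -0.13 and -0.24 (adjusted p = 0.61 and 0.42).

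Mtf2, the most abundant of the Polycomb-like genes per length, went the other way. In 2i/LIF it was at 716 and 703 CPM at 0 h, 571 and 562 at 12 h, 551 and 549.8 at 24 h, and 384 and 378 at 40 h. Mtf2 in serum/LIF+2i was at 654 and 635 CPM at 0 h, 486 and 486 at 12 h, 469.7 and 435 at 24 h, and 321 and 316 at 40 h. Every later time was lower than 0 h without overlap, and every serum/LIF+2i group was lower than its 2i/LIF counterpart. The log2 fold change of Mtf2 at 40 h was -0.90 (SE 0.04, adjusted p = 1.2e-45) in 2i/LIF and -1.02 (SE 0.04, adjusted p = 2.1e-51) in serum/LIF+2i. The third of the family, Phf1, was at 11.2 and 11.8 CPM at 0 h, 9.59 and 11.8 at 12 h, 7.50 and 9.42 at 24 h, and 5.89 and 6.39 at 40 h in 2i/LIF. Phf1 in serum/LIF+2i had 11.02 and 10.1 CPM at 0 h, 10.1 and 6.600 at 12 h, 8.18 and 8.15 at 24 h, and 8.62 and 7.65 at 40 h. Phf1 was low throughout, and its fall was called in 2i/LIF at 40 h (-0.91, SE 0.20, adjusted p = 3.9e-05) but not in serum/LIF+2i (-0.37, SE 0.18, adjusted p = 0.052); the difference between the media was 0.54 (SE 0.27, adjusted p = 0.13) and was not called. Phf1 shares 39.3% of its exonic bases with Cuta on the other strand and Mtf2 shares 6.93% with Tmed5, so their counts, above all those of Phf1, are uncertain.

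Jarid2 in 2i/LIF had group means of 285 ± 8.39, 547 ± 4.12, 629 ± 21.9 and 518 ± 0.964 CPM at 0, 12, 24 and 40 h (SD, n = 2). The means of Jarid2 in serum/LIF+2i were 361 ± 4.87, 726 ± 9.73, 722 ± 5.47 and 601 ± 5.85 CPM (SD, n = 2). Most of the rise was thus present at 12 h, with log2 fold changes of 0.94 (SE 0.04, adjusted p = 1.4e-45) and 1.01 (SE 0.04, adjusted p = 1.5e-50), and part of it was lost between 24 and 40 h (-0.28 and -0.27). Aebp2, which shares a PRC2 subtype with Jarid2, did not follow it. Its log2 fold change at 40 h was -0.74 (SE 0.06, adjusted p = 2.7e-24) in 2i/LIF and -0.88 (SE 0.05, adjusted p = 2.5e-31) in serum/LIF+2i. Epop, which links PRC2 to elongin BC, changed by -0.56 (SE 0.11, adjusted p = 0.0011) and -0.57 (SE 0.10, adjusted p = 0.00036).

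**Figure D2:**
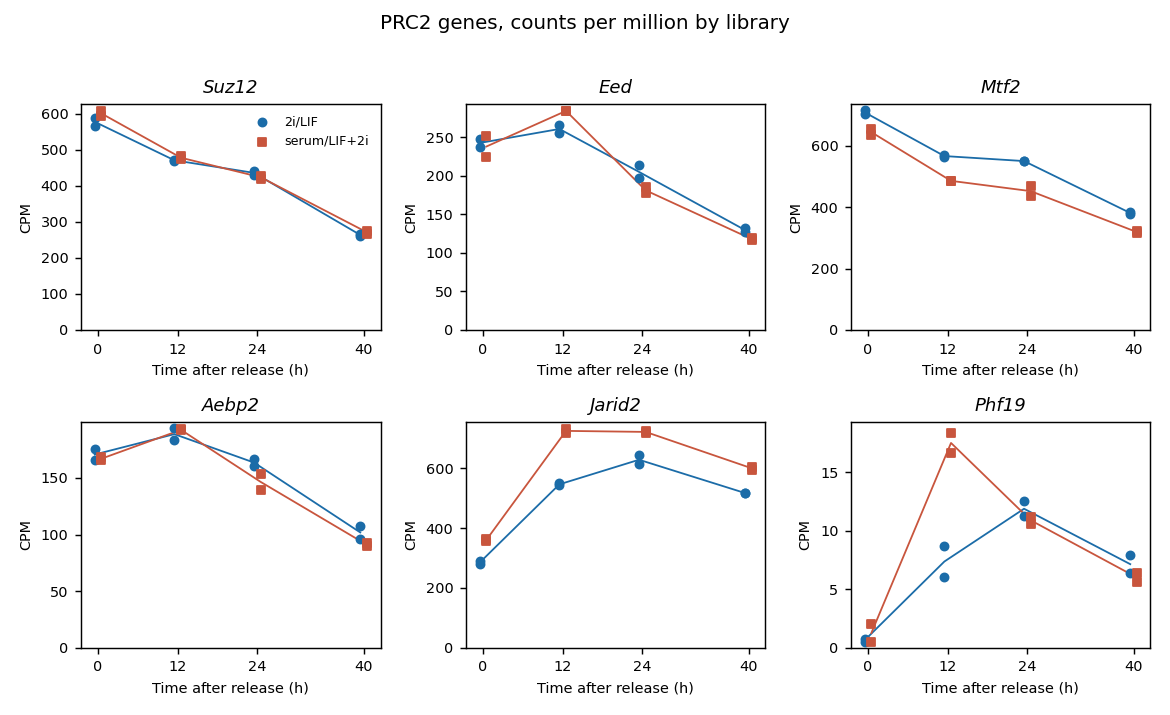
Points are CPM of the 2 libraries per group against hours after release, circles for 2i/LIF and squares for serum/LIF+2i, and lines join the group means. Suz12, Eed, Mtf2 and Aebp2 are lowest at 40 h in both media, while Jarid2 and Phf19 are above their 0 h libraries at every later time.

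In PRC1, 1 of the 2 ubiquitin ligases fell in both media at 40 h (27.5% of all genes did), and the CpG island reader Kdm2b peaked early. Rnf2 (RING1B), the predominant ligase in ES cells, rose at 12 h (log2 fold change 0.22 and 0.27) and was below its start at 40 h, at -0.62 (SE 0.05, adjusted p = 2.1e-21) in 2i/LIF and -0.47 (SE 0.05, adjusted p = 3.2e-16) in serum/LIF+2i. Its paralogue Ring1 was at most 9.73 CPM in any library and was not called at any time against 0 h in either medium, with log2 fold changes of 0.10 and -0.38 at 40 h. Kdm2b, whose zinc finger binds unmethylated CpG, had group means of 107 ± 5.55, 249.6 ± 9.22, 233 ± 0.998 and 151 ± 0.588 CPM at 0, 12, 24 and 40 h in 2i/LIF (SD, n = 2). Kdm2b in serum/LIF+2i was at 125 ± 5.64, 315 ± 0.203, 203 ± 2.22 and 156 ± 3.72 CPM (SD, n = 2). The rise at 12 h was 1.22 (SE 0.05, adjusted p = 3.9e-45) and 1.34 (SE 0.05, adjusted p = 3.7e-52), and at 40 h Kdm2b was still 0.50 and 0.32 above its start. Kdm2b shares 5.77% of its exonic bases with Rnf34 on the other strand, and Rnf2 shares 3.83% with Trmt1l.

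The 6 PCGF genes, 1 of which is in each PRC1 and sets its subtype, did not move as a block. At 40 h, 3 were called higher and 3 lower in 2i/LIF (34.1% and 34.7% of all genes). The counts in serum/LIF+2i were 3 and 2 (35.3% and 35.3%). Pcgf1, the partner of Kdm2b, fell while Kdm2b rose. In 2i/LIF it was at 19.0 and 21.3 CPM at 0 h, 10.3 and 9.63 at 12 h, 8.89 and 9.57 at 24 h, and 7.89 and 7.61 at 40 h. Pcgf1 in serum/LIF+2i was at 13.1 and 17.0 CPM at 0 h, 9.73 and 8.09 at 12 h, 7.30 and 7.85 at 24 h, and 9.91 and 7.65 at 40 h. No library after release reached the lowest at 0 h of its own medium. The log2 fold change of Pcgf1 at 40 h was -1.38 (SE 0.17, adjusted p = 1.7e-12) in 2i/LIF and -0.77 (SE 0.16, adjusted p = 9.4e-06) in serum/LIF+2i. Pcgf2 (MEL18), a subunit of canonical PRC1, was at 119 and 105 CPM at 0 h, 90.7 and 94.0 at 12 h, 87.9 and 79.0 at 24 h, and 75.0 and 72.4 at 40 h in 2i/LIF. Pcgf2 in serum/LIF+2i was at 86.0 and 90.9 CPM at 0 h, 88.5 and 79.4 at 12 h, 83.4 and 84.6 at 24 h, and 77.7 and 77.4 at 40 h. It fell in 2i/LIF (-0.60, SE 0.07, adjusted p = 1.3e-14) from a higher start, and by less in serum/LIF+2i (-0.19, SE 0.06, adjusted p = 0.0055), a call that was lost without 0 h replicate 2 of that medium (-0.15) and with DESeq2 (adjusted p = 0.084).

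Bmi1 (PCGF4), the other PCGF protein of canonical PRC1, moved in opposite directions in the media. In 2i/LIF, Bmi1 was at 37.6 and 34.8 CPM at 0 h, 27.7 and 28.5 at 12 h, 31.2 and 29.3 at 24 h, and 26.1 and 24.2 at 40 h. Bmi1 in serum/LIF+2i was at 19.7 and 19.2 CPM at 0 h, 13.2 and 13.6 at 12 h, 25.0 and 26.2 at 24 h, and 24.1 and 27.7 at 40 h. The media were apart at 0, 12 and 24 h, where all serum/LIF+2i libraries were lower, and they overlapped at 40 h. The log2 fold change at 40 h was -0.52 (SE 0.11, adjusted p = 1.1e-05) in 2i/LIF and 0.41 (SE 0.11, adjusted p = 0.00092) in serum/LIF+2i. Pcgf3, of a variant subtype like Pcgf1, was at 53.3 and 56.7 CPM at 0 h, 56.7 and 61.8 at 12 h, 69.8 and 66.7 at 24 h, and 76.5 and 75.4 at 40 h in 2i/LIF. Pcgf3 in serum/LIF+2i was at 59.5 and 58.0 CPM at 0 h, 54.5 and 55.7 at 12 h, 60.9 and 60.3 at 24 h, and 81.0 and 81.5 at 40 h. It was highest at 40 h in both media, with a rise of 0.47 (SE 0.07, adjusted p = 2.3e-08) and 0.47 (SE 0.07, adjusted p = 8.8e-10). Pcgf6, which works with L3mbtl2 at germline genes, was at 98.7 and 95.1 CPM at 0 h, 108 and 98.4 at 12 h, 117 and 118 at 24 h, and 122 and 122 at 40 h in 2i/LIF. Pcgf6 in serum/LIF+2i was at 88.3 and 90.6 CPM at 0 h, 101 and 103 at 12 h, 120.0 and 117 at 24 h, and 99.4 and 101 at 40 h. Its log2 fold change at 40 h was 0.33 (SE 0.06, adjusted p = 3.4e-07) and 0.16 (SE 0.06, adjusted p = 0.01), the second of which was 0.14 and not called without replicate 1 at 0 h. Pcgf5 was low, at 5.34 and 5.77 CPM at 0 h, 7.54 and 4.81 at 12 h, 5.41 and 3.65 at 24 h, and 8.02 and 8.15 at 40 h in 2i/LIF. Pcgf5 in serum/LIF+2i was at 8.08 and 6.02 CPM at 0 h, 6.62 and 6.28 at 12 h, 4.53 and 9.17 at 24 h, and 8.53 and 7.65 at 40 h, and its groups overlapped. Its call in 2i/LIF (0.54, SE 0.25, adjusted p = 0.048) was lost with DESeq2 (adjusted p = 0.13) and without any 1 of the 4 libraries, with values from 0.48 to 0.60.

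Of the 7 genes specific to canonical PRC1, 4 were called higher and 2 lower at 40 h in both media (27% and 27.5% of all genes). Phc1 had the highest level in CPM. Polyhomeotic proteins (Phc1 to Phc3) join PRC1 complexes to each other through their SAM domains. In 2i/LIF, Phc1 was at 271 and 261 CPM at 0 h, 579 and 577 at 12 h, 1002 and 973 at 24 h, and 984 and 1022 at 40 h. Phc1 in serum/LIF+2i was at 303 and 288 CPM at 0 h, 648 and 632 at 12 h, 1026 and 1044 at 24 h, and 960.5 and 937 at 40 h. Every group after release lay above 0 h without overlap, and the levels at 24 and 40 h were the highest. The log2 fold change of Phc1 at 40 h was 1.91 (SE 0.04, adjusted p = 2e-78) in 2i/LIF (3.77-fold) and 1.68 (SE 0.04, adjusted p = 9.7e-74) in serum/LIF+2i (3.21-fold). Phc2 lay below its start at 12 and 24 h, which was not called in 2i/LIF, and rose only in the last step. In 2i/LIF it was at 27.1 and 29.3 CPM at 0 h, 22.9 and 25.5 at 12 h, 22.6 and 26.1 at 24 h, and 42.6 and 45.4 at 40 h. Phc2 in serum/LIF+2i was at 29.1 and 26.7 CPM at 0 h, 23.4 and 22.4 at 12 h, 19.4 and 22.7 at 24 h, and 58.1 and 53.1 at 40 h. Between 24 and 40 h Phc2 rose by 0.85 (SE 0.10, adjusted p = 4e-12) in 2i/LIF and 1.40 (SE 0.09, adjusted p = 1.5e-28) in serum/LIF+2i. Phc3 fell, from 48.1 and 48.8 CPM at 0 h to 34.1 and 36.3 at 40 h in 2i/LIF, with 39.2 and 43.2 at 12 h and 36.8 and 41.3 at 24 h. Phc3 in serum/LIF+2i was at 43.3 and 46.3 CPM at 0 h, 35.1 and 35.3 at 12 h, 38.6 and 36.7 at 24 h, and 37.4 and 33.9 at 40 h. On the log2 scale Phc3 had changed at 40 h by -0.46 (SE 0.09, adjusted p = 6.2e-06) and -0.33 (SE 0.09, adjusted p = 0.00051).

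Among the chromobox genes, which read H3K27me3, Cbx7 was the main one per length. At 40 h Cbx7 and Cbx2 were higher and Cbx8 lower in both media. Cbx7 was at 206 and 204 CPM at 0 h, 262 and 279.8 at 12 h, 276 and 281 at 24 h, and 277 and 263 at 40 h in 2i/LIF. Cbx7 in serum/LIF+2i was at 195 and 186 CPM at 0 h, 275 and 267 at 12 h, 283 and 277 at 24 h, and 282 and 294 at 40 h. All libraries after release were above those at 0 h, with a log2 fold change at 40 h of 0.40 (SE 0.04, adjusted p = 2.2e-14) and 0.60 (SE 0.04, adjusted p = 9.4e-26). Cbx2 was at 41.02 and 43.7 CPM at 0 h, 37.0 and 37.7 at 12 h, 46.8 and 44.5 at 24 h, and 69.1 and 60.7 at 40 h in 2i/LIF. Cbx2 in serum/LIF+2i was at 45.8 and 47.0 CPM at 0 h, 54.3 and 57.5 at 12 h, 48.4 and 43.5 at 24 h, and 65.5 and 65.2 at 40 h. Cbx2 was called higher already at 12 h in serum/LIF+2i (0.27, SE 0.08, adjusted p = 0.0033, but 0.23 and not called without 12 h replicate 2) and not in 2i/LIF (-0.18, SE 0.09, adjusted p = 0.1). The 40 h libraries of Cbx2 were the highest in both media, and the log2 fold change then was 0.62 (SE 0.08, adjusted p = 1.4e-10) and 0.49 (SE 0.08, adjusted p = 8.5e-09). Cbx6 was at 98.6 and 105 CPM at 0 h, 128 and 128 at 12 h, 107 and 107 at 24 h, and 104 and 102 at 40 h in 2i/LIF. Cbx6 in serum/LIF+2i was at 88.6 and 92.5 CPM at 0 h, 98.0 and 98.9 at 12 h, 80.5 and 76.8 at 24 h, and 95.8 and 91.9 at 40 h. It was called higher at 12 h in 2i/LIF (0.33) and lower at 24 h in serum/LIF+2i (-0.20), and was not called at 40 h (0.02, SE 0.06, adjusted p = 0.8 and 0.05, SE 0.06, adjusted p = 0.42). Cbx8 was rare, with 18 and 17 counts at 0 h and 6 and 4 at 40 h in 2i/LIF. it in serum/LIF+2i had 26 and 30 counts at 0 h and 10 and 11 at 40 h. Scaled to depth, this was 3.10 and 2.58 CPM at 0 h, 1.78 and 1.20 at 12 h, 0.555 and 0.456 at 24 h, and 0.751 and 0.544 at 40 h in 2i/LIF. Cbx8 in serum/LIF+2i was at 3.82 and 4.41 CPM at 0 h, 2.70 and 2.45 at 12 h, 1.22 and 0.815 at 24 h, and 0.862 and 1.06 at 40 h. All libraries after release were below those at 0 h, with a log2 fold change at 40 h of -2.09 (SE 0.50, adjusted p = 0.0001) and -2.08 (SE 0.37, adjusted p = 4.6e-07). Cbx6 shares 5.31% of its exonic bases with Npcd on the same strand and Cbx7 1.54% with Apobec3, so their counts carry some uncertainty.

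Of the 4 variant PRC1 genes, Kdm2b and Yaf2 were higher and Rybp and L3mbtl2 lower at 40 h in both media (27% and 27.5% of all genes). Rybp and Yaf2 occupy the same position in variant PRC1 and stimulate its ligase. Rybp had group means of 86.9 ± 8.43, 98.6 ± 2.30, 87.9 ± 1.41 and 56.9 ± 2.73 CPM at 0, 12, 24 and 40 h in 2i/LIF (SD, n = 2). Rybp in serum/LIF+2i was at 82.0 ± 7.60, 90.9 ± 1.82, 87.1 ± 4.15 and 58.3 ± 1.10 CPM (SD, n = 2). It fell, with a log2 fold change at 40 h of -0.61 (SE 0.07, adjusted p = 7.8e-13) and -0.49 (SE 0.07, adjusted p = 1.4e-10). Yaf2 had means of 6.44 ± 1.37, 2.77 ± 0.0471, 5.19 ± 0.899 and 12.4 ± 0.113 CPM in 2i/LIF (SD, n = 2). Yaf2 in serum/LIF+2i was at 7.57 ± 0.521, 3.68 ± 1.29, 4.78 ± 0.277 and 15.03 ± 2.64 CPM (SD, n = 2). Yaf2 thus first fell, with log2 fold changes of -1.20 (SE 0.28, adjusted p = 0.00021) and -1.08 (SE 0.25, adjusted p = 9.1e-05) at 12 h, and then stood at 0.96 (SE 0.20, adjusted p = 1.5e-05) and 1.00 (SE 0.17, adjusted p = 1.9e-07) at 40 h. L3mbtl2, a subunit of the Pcgf6 complex, rose at 12 h (0.43 and 0.48) and was lower than its start at 40 h (-0.28, SE 0.05, adjusted p = 4.1e-08 and -0.66, SE 0.04, adjusted p = 1.8e-28). Chadl overlaps 17.2% of the exonic bases of L3mbtl2 on the other strand, so its counts are uncertain.

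**Figure D3:**
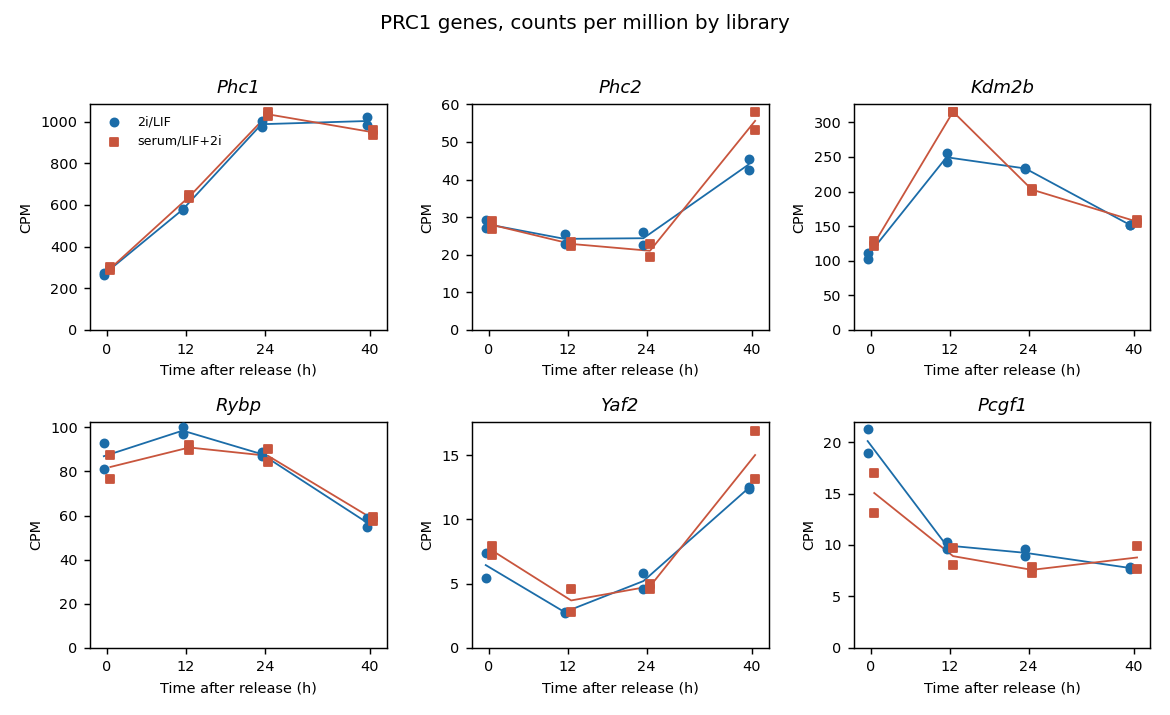
Points are CPM of the 2 libraries per group against hours after release, circles for 2i/LIF and squares for serum/LIF+2i, and lines join the group means. Phc1 is highest at 24 and 40 h, Kdm2b peaks at 12 h, and Yaf2 dips at 12 h before it is highest at 40 h, when Rybp is lowest.

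The 4 H3K4 methyltransferases changed little. At 40 h, 3 fell in 2i/LIF (34.7% of all genes), and 3 fell and 1 rose in serum/LIF+2i (35.3% and 35.3%). Kmt2a (MLL1) was called higher at 40 h in serum/LIF+2i (0.40, SE 0.05, adjusted p = 6.1e-14) but not in 2i/LIF (0.05, SE 0.05, adjusted p = 0.39). Kmt2b (MLL2), which acts at bivalent promoters, fell, with values of -0.20 (SE 0.05, adjusted p = 9e-05) and -0.40 (SE 0.04, adjusted p = 5.5e-14). The enhancer enzymes Kmt2c and Kmt2d were lower at 40 h, at -0.37 and -0.36 in 2i/LIF and at -0.21 and -0.15 in serum/LIF+2i. The call of Kmt2d in serum/LIF+2i was lost with DESeq2 (adjusted p = 0.081) and without replicate 1 at 0 h (-0.11) or at 40 h (-0.08). None of the 4 was 0.5 or more from its start at 40 h on the log2 scale.

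Of the 4 other COMPASS subunits, 1 rose and 2 fell at 40 h in each medium. Wdr5, the adaptor that holds the catalytic subunit, fell steeply. In 2i/LIF, Wdr5 was at 491 and 484 CPM at 0 h, 452 and 482 at 12 h, 318 and 312 at 24 h, and 249 and 251 at 40 h. Wdr5 in serum/LIF+2i was at 573 and 546 CPM at 0 h, 443 and 446 at 12 h, 238 and 232 at 24 h, and 221 and 211 at 40 h. The 24 and 40 h libraries were below all earlier ones of their medium, and from 12 h on those of serum/LIF+2i were lower than those of 2i/LIF. At 40 h the log2 fold change of Wdr5 was -0.96 (SE 0.04, adjusted p = 1.1e-45) in 2i/LIF and -1.37 (SE 0.04, adjusted p = 2.6e-62) in serum/LIF+2i. Ash2l, another core subunit, rose at the same time by 0.27 (SE 0.04, adjusted p = 7.7e-11) and 0.49 (SE 0.04, adjusted p = 1.7e-25). Dpy30, which binds Ash2l, was at 158 and 167 CPM at 0 h, 169.5 and 165 at 12 h, 188 and 195 at 24 h, and 159 and 151 at 40 h in 2i/LIF. Dpy30 in serum/LIF+2i was at 197 and 193 CPM at 0 h, 192 and 189 at 12 h, 165 and 169 at 24 h, and 115 and 122 at 40 h. It fell in serum/LIF+2i (-0.72, SE 0.05, adjusted p = 8.8e-28) and was not called in 2i/LIF (-0.07, SE 0.05, adjusted p = 0.24), where its highest libraries were those of 24 h. Men1 (menin), specific to the Kmt2a and Kmt2b complexes, changed by -0.28 (SE 0.07, adjusted p = 0.00027) in 2i/LIF and -0.13 (SE 0.07, adjusted p = 0.068) in serum/LIF+2i.

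Both H3K27 demethylases rose at some time. The antisense gene Kdm6bos overlaps 4.11% of the exonic bases of Kdm6b, whose counts therefore carry some uncertainty. Kdm6b (JMJD3) was at 106 and 102 CPM at 0 h, 106 and 122 at 12 h, 126 and 129 at 24 h, and 140.4 and 148 at 40 h in 2i/LIF. Kdm6b in serum/LIF+2i was at 91.8 and 84.5 CPM at 0 h, 114 and 112 at 12 h, 179 and 176 at 24 h, and 240.3 and 215 at 40 h. It started lower in serum/LIF+2i and was higher there at 24 and 40 h without overlap, with a log2 fold change at 40 h of 0.47 (SE 0.06, adjusted p = 1.3e-11) in 2i/LIF and 1.37 (SE 0.05, adjusted p = 9.7e-44) in serum/LIF+2i. Kdm6a (UTX), a subunit of the Kmt2c and Kmt2d complexes, was at 107 and 104 CPM at 0 h, 143 and 138 at 12 h, 137 and 139 at 24 h, and 111 and 118 at 40 h in 2i/LIF. Kdm6a in serum/LIF+2i was at 102 and 97.2 CPM at 0 h, 145 and 135 at 12 h, 137 and 131 at 24 h, and 116 and 119 at 40 h. It was highest at 12 and 24 h, with a rise at 12 h of 0.41 (SE 0.06, adjusted p = 6.6e-10) and 0.49 (SE 0.06, adjusted p = 2.4e-13), while the values at 40 h were 0.12 (SE 0.06, adjusted p = 0.063) and 0.24 (SE 0.06, adjusted p = 5.7e-05).

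To set paralogues beside each other, the counts were divided by gene length and each gene was given as a share of its family in each library. These shares are a description with no test of their own, and an exchange was named only where one member was called higher and another lower in the same comparison. At 40 h in both media the rule was met in the chromobox, polyhomeotic and PCGF families too. Cbx2 and Cbx7 were higher and the rare Cbx8 lower, and Phc1 and Phc2 higher and Phc3 lower. Pcgf3 and Pcgf6 were higher and Pcgf1 and Pcgf2 lower. Rbbp4 and Rbbp7 met it in 2i/LIF only, with small values and calls that were not stable. By that rule Yaf2 and Rybp exchanged at 40 h in both media. The share of Yaf2 in the pair was 13.1 and 11.3% at 0 h and 30.1 and 28.4% at 40 h in 2i/LIF, and 14.6 and 15.1% and 35.6 and 29.6% in serum/LIF+2i, with no overlap. At 12 h it had first gone down to a mean of 5.05% and 7.10%, when Yaf2 was called lower and Rybp higher in both media. Those small rises of Rybp at 12 h (0.19 and 0.15) were not called with DESeq2 (adjusted p = 0.091 and adjusted p = 0.14), and were 0.09 and 0.06 without replicate 2 at 0 h of the medium. Phf19 and Mtf2 exchanged too, but Mtf2 still made up a mean of 94.3% and 92.5% of the Polycomb-like family at 40 h. The share of Phf19 went from 0.122% to 2.47% in 2i/LIF and from 0.258% to 2.43% in serum/LIF+2i, with a mean of 4.62% at 12 h in the latter.

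In the Ezh pair, Ezh1 was lower and Ezh2 higher at 12 and 24 h in both media. The mean share of Ezh1 in 2i/LIF was 13.6%, 8.06%, 7.60% and 14.2% at 0, 12, 24 and 40 h. Ezh1 in serum/LIF+2i had shares of 10.3%, 6.86%, 6.47% and 11.5%. Ezh2 therefore made up most of the pair at all times, and the loss of Ezh1 was undone at 40 h. The call of Ezh2 at 12 h in serum/LIF+2i was lost without replicate 2 at 0 h (0.03). Within the polyhomeotic family, Phc1 went from 86.5% to 95.2% in 2i/LIF and from 88.0% to 93.9% in serum/LIF+2i, while Phc3 was called lower. Among the chromobox genes, Cbx7 went from 68.9% to 71.8% in 2i/LIF and from 67.3% to 73.8% in serum/LIF+2i between 0 and 40 h. Among the PCGF genes, Pcgf1 went from 16.8% to 7.05% and Pcgf6 from 33.7% to 46.2% in 2i/LIF. Pcgf1 in serum/LIF+2i went from 14.7% to 8.40% and Pcgf6 from 36.5% to 39.9%. Kmt2a took 26.1% of the Kmt2a and Kmt2b pair at 0 h and 38.1% at 40 h in serum/LIF+2i, with Kmt2a called higher and Kmt2b lower. Kdm6b rose from 43.8% to 49.9% of the demethylase pair in 2i/LIF and from 41.2% to 60.4% in serum/LIF+2i, but Kdm6a was not called lower, so this was a gain of one gene and not an exchange.

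**Figure D4:**
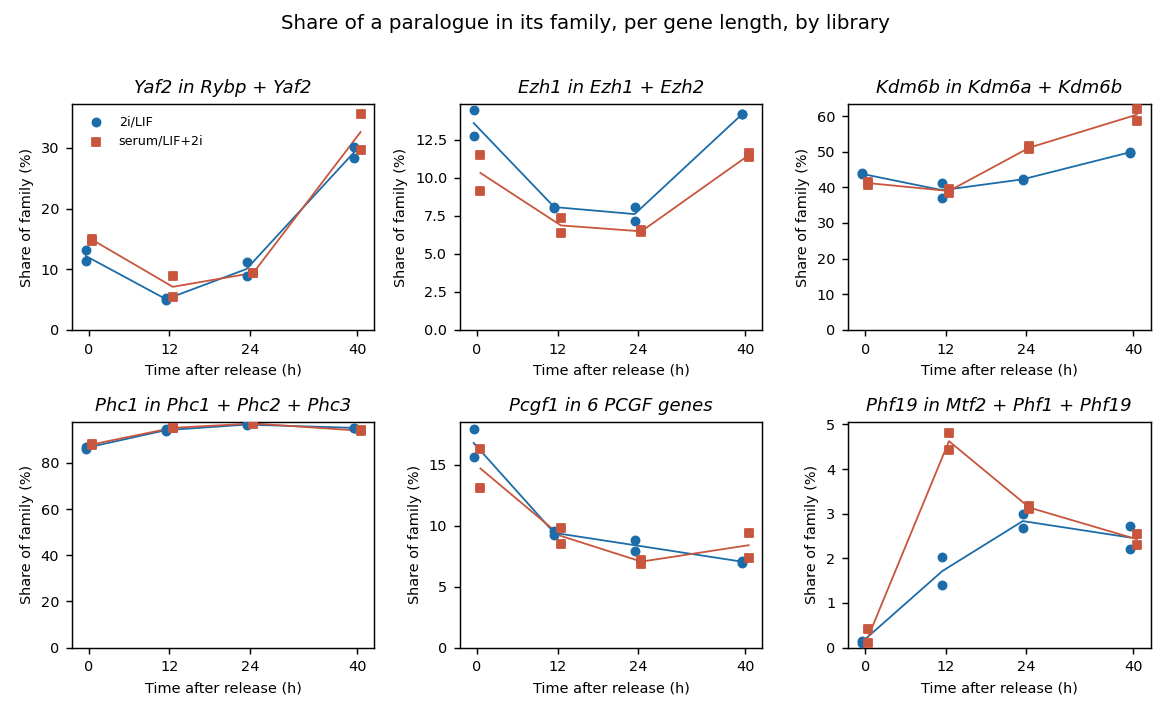
Each panel gives the share (%) of one gene in the summed length-scaled counts of its family against hours after release, with points for libraries (circles 2i/LIF, squares serum/LIF+2i) and lines through group means. Yaf2 is at about 30% at 40 h, Ezh1 dips at 12 and 24 h, and Phc1 is above 93% after release.

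Many members rose in the first step and fell in the last. From 24 to 40 h, 7 members were called higher and 21 lower in 2i/LIF (22.2% and 24.5% of all genes), or 10 and 18 with library size as the only scaling. In serum/LIF+2i there were 9 and 20 (25.9% and 24.6%). In 2i/LIF, 11 members were called higher from 0 to 12 h and lower from 24 to 40 h, which 7.84% of all genes were. In serum/LIF+2i there were 14 such members against 9.62%. These steps share no library. All 11 of 2i/LIF were also among the 14 of serum/LIF+2i: Ezh2, Jarid2, Aebp2, Phf19, Rnf2, Rybp, Kdm2b, L3mbtl2, Kmt2c, Kdm6a and Ash2l, to which serum/LIF+2i added Eed, Pcgf6 and Phc1. They come from PRC2, from PRC1 and from the trithorax side. The count ranged from 9 to 12 in 2i/LIF and from 12 to 14 in serum/LIF+2i over the alternative settings and left-out libraries. The first rise of Aebp2 in 2i/LIF was 0.15, and 0.11 without replicate 2 at 0 h or 0.10 without replicate 1 at 12 h. That of Rybp was 0.09 and 0.06 without replicate 2 at 0 h, that of Ezh2 in serum/LIF+2i 0.03 without replicate 2 at 0 h, and that of Pcgf6 0.17 without replicate 1 at 0 h. The reverse course, lower at first and higher at last, was called for Ezh1, Rbbp7 and Yaf2 in 2i/LIF (4.99% of all genes) and for these and Phc2 in serum/LIF+2i (7.75%). That first fall of Phc2 (-0.29) was not called with DESeq2 (adjusted p = 0.11) or in edgeR without the filter (adjusted p = 0.052). It was -0.23 without replicate 1 at 0 h, and -0.31 and -0.25 without replicates 1 and 2 at 12 h.

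Before release the media differed in fewer of these genes. At 0 h, 9 members were called higher and 8 lower in serum/LIF+2i than in 2i/LIF, against 14.6% and 18.4% of all genes. Only Bmi1 among the called genes differed by more than 0.5 on the log2 scale. Its difference was -0.89 (SE 0.12, adjusted p = 2.3e-10), followed by Epop (0.47, SE 0.10, adjusted p = 0.0058), Ezh1 (-0.46, SE 0.10, adjusted p = 5e-05) and Pcgf1 (-0.42, SE 0.15, adjusted p = 0.021). Jarid2 (0.34), Dpy30 (0.26), Wdr5 (0.20) and L3mbtl2 (0.17) were higher in serum/LIF+2i. Pcgf2 (-0.34), Ash2l (-0.18) and Mtf2 (-0.14) were lower. Of the 17 calls, 9 held in every alternative (Bmi1, Ezh1, Jarid2, Dpy30, Wdr5, L3mbtl2, Pcgf2, Ash2l and Mtf2), and the count was 11 (5 higher) without replicate 2 of 2i/LIF at 0 h. Without that library the log2 difference was 0.17 for Kdm2b, 0.10 for Kmt2b, 0.09 for Kmt2c, 0.12 for Phc1, -0.13 for Cbx6 and -0.34 for Pcgf1. Without replicate 1 of serum/LIF+2i it was 0.08 for Kmt2b, 0.11 for Phc1, -0.14 for Cbx6 and -0.24 for Pcgf1. Epop (0.43 without replicate 1 of 2i/LIF) and Kdm6b (-0.18 without replicate 2 of serum/LIF+2i) were each lost without 1 library.

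At 12 h, 8 members were higher and 5 lower in serum/LIF+2i (14.8% and 15.5% of all genes), with Phf19 (1.24), Cbx2 (0.59, SE 0.08, adjusted p = 5.7e-09) and Bmi1 (-1.06, SE 0.12, adjusted p = 2.1e-12) the furthest apart of those called. At 24 h the counts were 3 higher and 10 lower (14.1% and 17%), or 6 and 9 with library size as the only scaling. Without 24 h replicate 1 of serum/LIF+2i, 5 were higher. At 40 h they were 7 and 11 (13.9% and 13.4%), or 8 and 7 with that scaling. The number lower was also 7 with DESeq2, and 7 without 40 h replicate 1 of 2i/LIF. Jarid2 was higher and Mtf2 lower in serum/LIF+2i at all 4 times. Kdm6b was lower in serum/LIF+2i at 0 h (-0.24, SE 0.07, adjusted p = 0.0025) and higher at 24 h (0.47, SE 0.05, adjusted p = 1.3e-12) and 40 h (0.66, SE 0.05, adjusted p = 1e-21). Dpy30 did the opposite, with 0.26 at 0 h and -0.39 (SE 0.05, adjusted p = 4.4e-11) at 40 h, as did Wdr5, with 0.20 at 0 h and -0.21 (SE 0.04, adjusted p = 1.9e-05) at 40 h. The inhibitors and LIF were in both media before release, and serum, base medium and culture history cannot be told apart as sources of these differences.

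Whether release acted differently in the media was tested as the exit effect in serum/LIF+2i minus that in 2i/LIF. At 12 h, 2 members were higher and 1 lower in this difference (4.8% and 4.4% of all genes), or 1 and 1 with library size as the only scaling. At 24 h the counts were 4 and 9 (9.77% and 11%), or 5 and 6 with DESeq2 size factors, and at 40 h 9 and 6 (14.8% and 12.8%). Counts in 1 direction moved with single libraries. At 12 h the number higher was between 0 (without 0 h replicate 2 of 2i/LIF) and 3. At 24 h the number lower was 5 without either 0 h replicate of 2i/LIF and 4 without 24 h replicate 2 of serum/LIF+2i, and at 40 h it was 10 without 0 h replicate 2 of serum/LIF+2i. The largest called difference at 40 h was that of Bmi1, at 0.93 (SE 0.16, adjusted p = 7.7e-07), from a fall in 2i/LIF and a rise in serum/LIF+2i. Next came Kdm6b at 0.90 (SE 0.08, adjusted p = 1.2e-16), Dpy30 at -0.65 (SE 0.07, adjusted p = 8.3e-14) and Pcgf1 at 0.61 (SE 0.23, adjusted p = 0.04). Wdr5 fell further in serum/LIF+2i (-0.41, SE 0.06, adjusted p = 1.5e-09), as did L3mbtl2 (-0.38, SE 0.06, adjusted p = 4.2e-07), while Phc1 rose less there (-0.23, SE 0.05, adjusted p = 0.00029). Pcgf2 (0.41, SE 0.09, adjusted p = 0.00017) fell less in serum/LIF+2i and Kmt2a (0.35, SE 0.07, adjusted p = 8.4e-06) rose more. The differences of Bmi1, Kdm6b, Dpy30, Wdr5, L3mbtl2, Phc1, Pcgf2 and Kmt2a were called in every alternative. That of Pcgf1 was not called with DESeq2 (adjusted p = 0.19) or when fitted on only the groups compared. It was also not called, at 0.52, without replicate 2 of 2i/LIF at 0 h, 0.64 and 0.58 without replicates 1 and 2 of 2i/LIF at 40 h, 0.43 without the serum/LIF+2i replicate 1 at 0 h and 0.40 without that at 40 h.

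**Figure D5:**
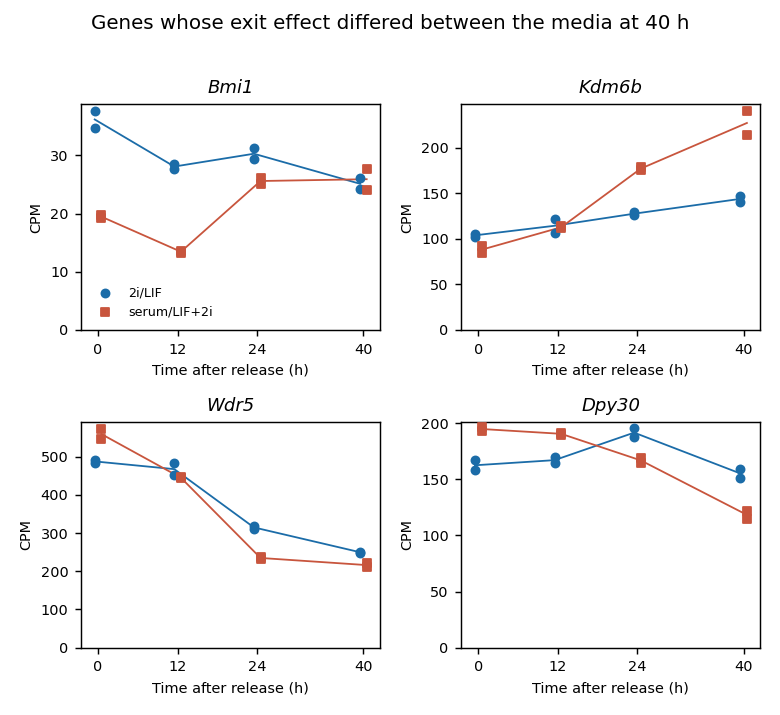
Points are CPM of the 2 libraries per group against hours after release for Bmi1, Kdm6b, Wdr5 and Dpy30, circles for 2i/LIF and squares for serum/LIF+2i, with lines through the group means. Bmi1 starts lower in serum/LIF+2i and meets 2i/LIF at 40 h, Kdm6b and Dpy30 cross over after 12 h, and Wdr5 crosses over by 12 h.

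Other genes related to these systems were read in the same fit, and 52 of a list of 53 were in the table. The list held further subunits and partners of the complexes, the Polycomb deubiquitinase genes, H3K4 demethylases and other trithorax-group genes. At 40 h, 16 were called higher and 23 lower in 2i/LIF, while 21 were higher and 19 lower in serum/LIF+2i, where 34.1% and 34.7% of all genes were called in the first and 35.3% and 35.3% in the second. Their median log2 fold change was -0.14 in 2i/LIF (0.01 over all genes) and 0.00 in serum/LIF+2i (-0.00 over all genes). Among those called the same way in both media, the largest rises were those of the chromatin remodeller Chd7 (1.74, SE 0.06, adjusted p = 8.1e-53 and 1.98, SE 0.06, adjusted p = 1.1e-60), the H3K4 methyltransferase Setd1b (0.83, SE 0.08, adjusted p = 2e-17 and 1.13, SE 0.07, adjusted p = 2e-31) and Psip1 (0.78, SE 0.04, adjusted p = 6.7e-36 and 0.94, SE 0.04, adjusted p = 1.1e-44), which tethers the Kmt2a and menin complex to chromatin. The largest falls were those of Fbrsl1 (-1.94, SE 0.09, adjusted p = 4.8e-41 and -1.74, SE 0.08, adjusted p = 1.3e-39), a relative of the PRC1 partner Auts2, and of Ncoa6 (-1.45, SE 0.07, adjusted p = 2.7e-41 and -0.55, SE 0.06, adjusted p = 7.3e-14) and Paxip1 (-0.88, SE 0.05, adjusted p = 3.2e-30 and -0.82, SE 0.05, adjusted p = 4.9e-29), both subunits of the Kmt2c and Kmt2d complexes.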

How the data were processed

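Stranded poly(A) RNA-seq libraries were counted per gene, and the authors deposited 1 table of raw counts with gene lengths. Per the submitters' processing notes, fastp, STAR, featureCounts and mm10 were used. Versions, annotation and strand setting are not given in the sources used here, so overlapping genes on opposite strands may share reads. Besides the overlaps given above, those of Ezh2 (2.61% of exonic bases), Kmt2a (2.27%), Kmt2c (1.35%) and Pcgf5 (0.475%) are of this kind. All 16 columns matched a library title, and 0 columns were without a sample.

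From the deposited counts, genes were filtered (filterByExpr, minimum count 10, minimum total 15), scaled by TMM and fitted in edgeR 4.0.16 (R 4.3.3, limma 3.58.1) with 1 term per group over 16 libraries, which leaves 8 residual degrees of freedom. The robust quasi-likelihood F test gave 17 comparisons, and p-values were adjusted by Benjamini-Hochberg over 14288 genes each at 0.05. Standard errors were derived from F. CPM is scaled to the TMM-adjusted library size. Depth ran from 5931381 to 11142744 counts. On simulated counts at the same library sizes, the exit fit at 40 h in 2i/LIF recovered 61.2% of 1.5-fold, 86.6% of 2-fold and 93.9% of 4-fold changes. It also called 12 unchanged genes, in a fit of 14288 genes that included the changed ones. Between the media at 0 h, 59.7% of 1.5-fold and 77.6% of 2-fold changes were recovered. For the interaction at 40 h these were 49.3% and 77.6%.

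Alternatives were DESeq2 1.42.0, the edgeR fit with the size factors of DESeq2, no TMM scaling (library size only), no filter, a mean of at least 5 CPM, a replicate term, only the groups compared, no ribosomal RNA genes (4 with counts), and each library left out. The joint counts over steps or media were recomputed under these settings by a choice made after seeing the data. The members, families and lists were chosen with earlier results of these data known. Values per library are given for members past a log2 change of 1 at 40 h, or 0.5 between media at 0 h or in the interaction at 40 h, and for their paralogues. The other members are given by means, ranges and counts. Among the 52 related genes outside the members, the 3 largest rises and falls called in both media were named. Promoters came from RefSeq on GRCm38.p6 and overlaps from GENCODE on the same assembly. Figures were drawn with matplotlib 3.10.9.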

Additional observations from a re-analysis of the deposited data

Results flagged for a closer look

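The effect of release differed between the media, by the interaction test of edgeR over all genes, for 31 combinations of member and time. Values are the log2 fold change against 0 h in serum/LIF+2i minus that in 2i/LIF.

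At 12 h the difference was 0.46 for Cbx2, 0.28 for Men1 and -0.27 for Wdr5. Wdr5 was the one of these 3 called in every alternative.

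At 24 h it was positive for Kdm6b (0.71), Bmi1 (0.65), Pcgf2 (0.34) and Ash2l (0.23). It was negative for Epop (-0.71), Wdr5 (-0.62), Dpy30 (-0.46), Kdm2b (-0.43), Cbx6 (-0.28), Rbbp7 (-0.17), L3mbtl2 (-0.16), Mtf2 (-0.15) and Jarid2 (-0.14). The calls of Cbx6, Jarid2, L3mbtl2, Mtf2 and Rbbp7 were lost in at least 1 alternative.

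At 40 h it was positive for Bmi1 (0.93), Kdm6b (0.90), Pcgf1 (0.61), Pcgf2 (0.41), Phc2 (0.36), Kmt2a (0.35), Ash2l (0.23), Cbx7 (0.20) and Kmt2d (0.20). It was negative for Dpy30 (-0.65), Wdr5 (-0.41), L3mbtl2 (-0.38), Phc1 (-0.23), Rbbp4 (-0.21) and Kmt2b (-0.20). The calls of Cbx7, Kmt2b, Kmt2d, Pcgf1 and Phc2 were lost in at least 1 alternative. All these differences use the same libraries at 0 h, so the times are not independent of each other.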

How the results depend on the processing

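No alternative setting reversed the direction of a called member, and 1 left-out library did: Ezh2 at 40 h in serum/LIF+2i moved from -0.12 to 0.00397 without the serum/LIF+2i replicate 1 at 0 h, and the lowest value over its left-out libraries was -0.23. Counts of called members over both directions stayed within 1.5 times of their value except for 4. Members past a log2 change of 1 at 12 h in serum/LIF+2i were 5, and 3 to 5 over left-out libraries (3 without replicate 2 at 12 h). The media at 0 h differed in 17 members, and in 11 to 17 over left-out libraries. The interaction at 12 h was called for 3, for 1 with DESeq2 and for 1 to 4 over left-out libraries, and at 24 h for 13, for 8 with DESeq2 and for 8 to 12. Counts in 1 direction moved further: with library size alone, members higher between the media at 24 h went from 3 to 6 and members lower at 40 h from 11 to 7. With DESeq2 the members lower between the media at 40 h were 7, those lower in the interaction at 24 h went from 9 to 4, and those higher in it at 40 h from 9 to 5. Without ribosomal RNA genes those lower in it at 40 h went from 6 to 10, and fitting only the groups compared gave 5 members higher between the media at 24 h. The cause was not tested. Of 697 values of a member in a comparison, DESeq2 lost the call for 50 and gained it for 1, and library size alone lost 23 and gained 14. Without division by length the mean share of Yaf2 went from 6.86% to 18.0% between 0 and 40 h in 2i/LIF and from 8.45% to 20.4% in serum/LIF+2i. That of Kdm6b went from 49.6% to 55.7% and from 47.0% to 65.8%, and that of Phf19 at 40 h was 1.81% and 1.80%. Same-numbered replicates did not deviate together (r between -0.023 and 0.033 over 28 pairs of groups). No shared shift was thus detected, which cannot show whether same-numbered libraries came from one culture. The replicate block lost 1 call, that of Pcgf3 between the media at 24 h (adjusted p = 0.051), and gained 2. With 2 libraries per group, the fit on simulated counts recovered 61.2% of 1.5-fold changes in the exit at 40 h in 2i/LIF. Recovery was 59.7% between the media at 0 h and 49.3% in the interaction at 40 h. Phf19, Cbx8 and Yaf2 rest on few counts.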
